A study of Mus musculus with 4 samples.

Results

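The 9 genes described here encode the proteins by which liver cells sense bile acids and feed that signal back. They were taken by name: Nr1h4, Nr0b2, Nr1i2, Nr1i3, Nr5a2, Vdr, Gpbar1, Fgfr4 and Klb. They are 9 of 25458 genes to which the authors' annotation assigned at least 1 promoter or distal peak of open chromatin. The study set livers of Mertk knockout mice against wild-type ones after ligation of the bile duct, which blocks bile outflow and leads to cholestasis and fibrosis. Both groups carried the ligation, and no group without it was analysed here. Nuclei of frozen liver were read with the 10x Genomics Multiome assay, which tags the RNA and the transposase-accessible DNA (ATAC) of each nucleus with a droplet barcode. For each genotype there was a single RNA and a single ATAC library, so nothing was replicated. The labels give neither the number of animals behind a library nor their age, sex, strain or time after ligation, and they do not describe the Mertk allele.

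Bile acids are made from cholesterol in hepatocytes and are toxic when they build up. The nuclear receptor FXR, encoded by Nr1h4, binds them and raises transcription of Nr0b2, whose product SHP is a nuclear receptor without a DNA-binding domain that represses partner receptors. One such partner is LRH-1, encoded by Nr5a2, which activates Cyp7a1, whose enzyme sets the rate of bile acid synthesis. In the intestine FXR induces the hormone FGF15, which acts on hepatocytes through the receptor kinase FGFR4 and its coreceptor beta-Klotho, the product of Klb, to lower Cyp7a1. PXR (Nr1i2), CAR (Nr1i3) and the vitamin D receptor (Vdr) switch on detoxifying enzymes, and PXR and the vitamin D receptor can bind the secondary bile acid lithocholic acid. Gpbar1 encodes TGR5, a bile acid receptor of the cell surface that is best known from macrophages, bile duct cells and sinusoidal endothelium rather than hepatocytes.

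The knockout ATAC library was the deeper of the pair, and markers of hepatocytes and stellate cells had far more peaks in it. Called nuclei held 40858512 (wild type) and 83996145 (knockout) ATAC fragments, of which 33.7% and 46% lay in the peaks of their own library. The peak lists covered 61.8 and 91.3 Mb, with mean widths of 855 and 859 bp. The libraries had 5828 and 5339 called nuclei, of which 44 carry a barcode that both libraries share. Of 10 hepatocyte markers, 10 had a promoter peak in the knockout library and 0 in the wild-type library. Among all genes with a promoter peak in either library, 15.4% had it on the knockout list only. The peaks of these 10 markers summed to 77.2 kb in the knockout and 11.7 kb in the wild-type library. Alb, Cps1, Serpina1a, Cyp2e1 and Cyp3a11 were listed at 0 wild-type peaks. Ttr went the other way, with 4 wild-type and 3 knockout peaks. Apoa1 had 7 and 24, Apob 2 and 8, Pck1 1 and 9, and G6pc 1 and 6. Stellate cell and fibroblast markers had 8 wild-type and 60 knockout peaks, with Col3a1, Des and Lrat at 0 in the wild-type library. The other marker lists had 60 and 56 peaks (macrophage and Kupffer cell), 56 and 109 (endothelial), 10 and 20 (cholangiocyte), 22 and 18 (neutrophil), 12 and 6 (T and natural killer cell) and 4 and 1 (B cell). The part that depth and cell makeup play in the differences below was not tested. Peaks were called on all nuclei of a library together, so fewer nuclei of a type and less open chromatin per nucleus cannot be told apart. Mertk itself had 10 wild-type and 13 knockout peaks with a promoter peak in each library. The deleted part of the gene is not described, so this does not check the genotype.

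The 9 genes had more open regions in the knockout library, 103 peaks against 43 in the wild-type library. Their peaks summed to 88.1 kb and 36.8 kb, and their number differed by 2.4 times, where all peaks differed by 1.47 times. Most of the knockout peaks were those of Nr5a2 (13 wild-type and 38 knockout peaks) and Nr1h4 (6 and 20), so these pooled values describe mainly that pair. More peaks in the knockout than in the wild-type library were found for 7 of the 9 genes, against 60.3% of all genes with a peak. Vdr (8 and 8) and Gpbar1 (3 and 3) had equal numbers. Merged over both libraries the peaks made 114 regions: 32 were shared, 11 were found only on the wild-type list and 71 only on the knockout list. Over all genes too, only 43.7% of knockout distal peaks overlapped a wild-type peak, and 78.9% of knockout promoter peaks did. For wild-type peaks the all-gene shares were 67.1% (distal) and 93.5% (promoter). Of the 71 regions found in the knockout library alone, 49 touched the gene itself, 18 lay upstream and 4 downstream. Where the libraries shared a region they placed it alike: the centres of shared peaks lay a median of 36.75 bp and at most 188 bp apart.

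**Figure D1:**
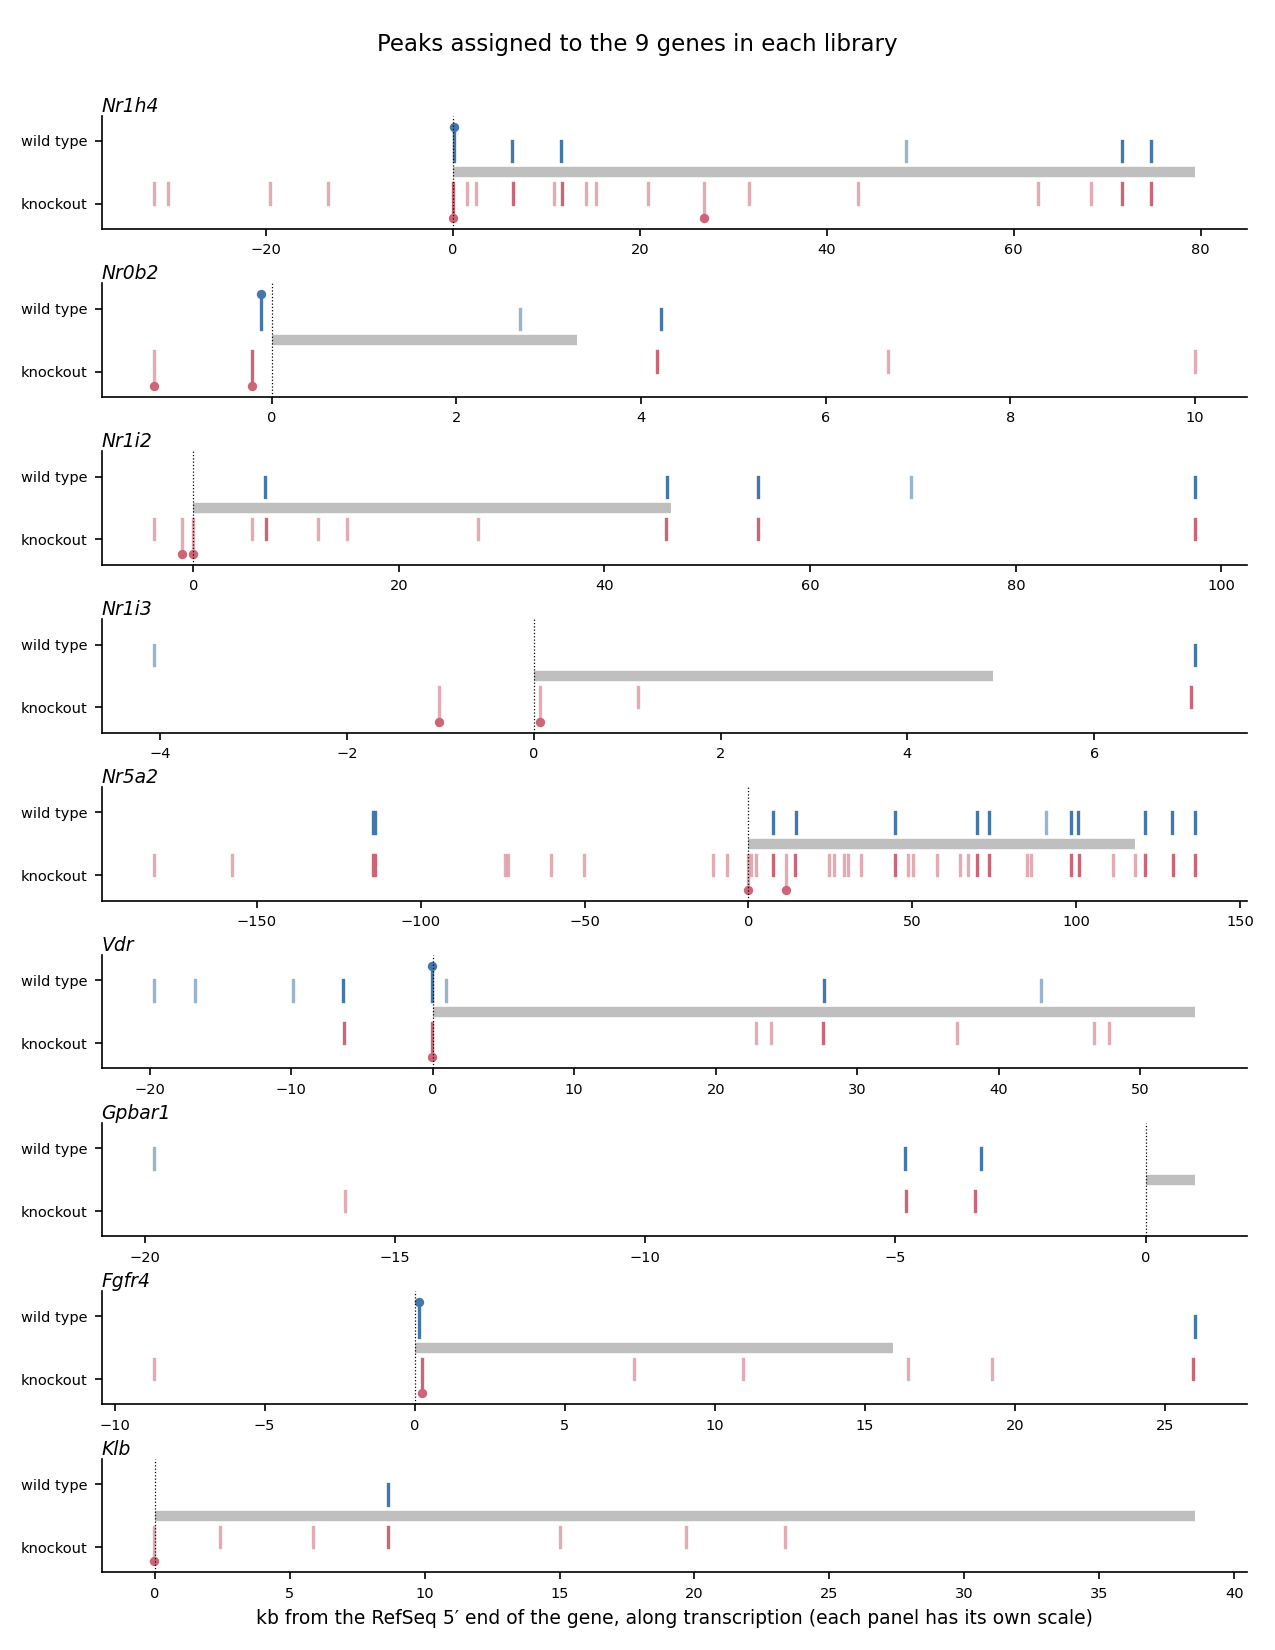
Peaks assigned to each of the 9 genes, by distance in kb from the RefSeq 5′ end along transcription; ticks mark peak centres (wild type above, knockout below), taller ticks with a dot are promoter peaks, dark ticks overlap a peak of the other library, pale ticks do not, and the grey bar is the gene. The tick width is not to scale. Nr5a2 has 38 knockout and 13 wild-type peaks, and Vdr has 8 in each library at mostly different places.

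Promoters separated the genes into those open in both libraries and those open in the knockout library alone. Of the 9 genes, 8 had a promoter peak on the knockout list and 4 on the wild-type list (Nr1h4, Nr0b2, Vdr and Fgfr4). The promoters of the other 4 (Nr1i2, Nr1i3, Nr5a2 and Klb) had a peak on the knockout list only. That is 4 of 8, where the share among all genes with a promoter peak in either library was 15.4%. The reverse, a promoter found only on the wild-type list, held for 0 of the 8, against 3.17%. Gpbar1 had no promoter peak in either library. In the authors' annotation promoter peaks have distances of -1000 to 100 bp from a start site, so a peak just past that limit counts as distal. At Nr5a2 this matters: a region at chr1:136952517-136953478 was open in both libraries, 311 bp (wild type) and 152 bp (knockout) from a start site, and was called distal in both lists.

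RefSeq gives 10 promoter windows of 300 bases for the 9 genes (250 before and 50 after a start, build GRCm38.p6, the assembly behind mm10). Of these windows, 3 overlapped a peak in both libraries, 5 in the knockout library alone, and 2 in neither; over all 32851 windows the shares were 40.2%, 8.33% and 49.8%, with 1.73% in the wild-type library alone. The only Nr1h4 window is that of its internal start. Its 5′ promoter, open in both libraries, has no window here, so Nr1h4 counts as knockout alone among windows and as open in both among promoter peaks. Base composition differed in its median between the classes over all windows, with broad overlap: 61.7% G and C bases where both libraries had a peak (quartiles 55% and 68%) and 54% where only the knockout library did (quartiles 47.7% and 61.3%). Among the 9 genes, Fgfr4 had 65.3% and Vdr 61.3% G and C bases with peaks in both libraries. Nr0b2, at 49.7%, was open in both libraries with a composition inside the range of the knockout-alone windows, which ran from 42% (Nr5a2) to 54% (Nr1i3). The 3 windows open in both libraries are printed first and 3 of the 5 open in the knockout library alone after them, 5′ to 3′ along each gene, to show their composition and motifs. Capitals mark the GC box (GGGCGG) and the core hexamer of nuclear receptor sites (AGGTCA, its variant AGTTCA and its variant GGGTCA), each on either strand.
Nr0b2 (chr4:133553126-133553425, + strand): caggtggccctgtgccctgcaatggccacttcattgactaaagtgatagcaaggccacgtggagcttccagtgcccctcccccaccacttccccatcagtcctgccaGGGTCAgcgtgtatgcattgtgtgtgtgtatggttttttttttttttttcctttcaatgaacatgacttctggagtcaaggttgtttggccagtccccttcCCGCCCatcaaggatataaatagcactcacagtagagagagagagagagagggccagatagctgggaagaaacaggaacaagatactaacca
Vdr (chr15:97908247-97908546, - strand): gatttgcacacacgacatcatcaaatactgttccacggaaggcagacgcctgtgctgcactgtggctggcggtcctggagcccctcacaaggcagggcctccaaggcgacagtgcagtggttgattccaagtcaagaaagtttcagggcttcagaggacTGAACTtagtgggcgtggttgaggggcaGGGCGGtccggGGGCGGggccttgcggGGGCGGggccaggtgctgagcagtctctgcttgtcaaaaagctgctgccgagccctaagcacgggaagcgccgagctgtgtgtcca
Fgfr4 (chr13:55152568-55152867, + strand): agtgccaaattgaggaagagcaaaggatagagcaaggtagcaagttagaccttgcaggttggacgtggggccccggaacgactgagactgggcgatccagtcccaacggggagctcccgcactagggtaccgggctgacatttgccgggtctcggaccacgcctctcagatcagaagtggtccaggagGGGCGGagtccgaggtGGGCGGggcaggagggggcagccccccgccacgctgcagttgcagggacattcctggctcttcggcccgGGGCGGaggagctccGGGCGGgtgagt
Nr1h4 (chr10:89506609-89506908, - strand): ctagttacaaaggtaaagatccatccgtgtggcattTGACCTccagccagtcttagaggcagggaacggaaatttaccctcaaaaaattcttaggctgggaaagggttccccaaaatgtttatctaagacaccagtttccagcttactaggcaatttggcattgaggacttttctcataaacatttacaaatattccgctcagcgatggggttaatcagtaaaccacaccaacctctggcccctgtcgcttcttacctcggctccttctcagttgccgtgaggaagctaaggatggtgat
Nr5a2 (chr1:136960399-136960698, - strand): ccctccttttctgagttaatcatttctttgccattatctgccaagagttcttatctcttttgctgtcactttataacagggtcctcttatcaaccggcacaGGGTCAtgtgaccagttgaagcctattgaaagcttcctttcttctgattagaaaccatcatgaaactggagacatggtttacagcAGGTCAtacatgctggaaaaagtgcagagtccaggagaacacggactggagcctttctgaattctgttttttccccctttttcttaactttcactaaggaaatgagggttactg
Klb (chr5:65348161-65348460, + strand): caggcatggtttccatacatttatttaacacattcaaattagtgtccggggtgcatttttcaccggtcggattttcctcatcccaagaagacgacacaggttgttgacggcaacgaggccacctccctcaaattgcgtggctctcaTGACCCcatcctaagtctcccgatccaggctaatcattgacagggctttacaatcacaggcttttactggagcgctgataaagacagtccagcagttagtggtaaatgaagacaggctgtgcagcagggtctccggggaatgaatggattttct

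A GC box, the binding motif of Sp1-like factors, was found in 3 of the 3 windows open in both libraries and in 0 of the 5 open in the knockout library alone. Over all windows the shares were 64.9% and 34.8%. Vdr held 3 GC boxes and Fgfr4 held 4, in windows with 15 and 20 CG dinucleotides, against a median of 21 over all windows open in both libraries. Nr0b2 held 1 GC box and 3 CG dinucleotides. The core hexamer was found in 3 of the 5 knockout-alone windows (Nr1h4, Nr5a2 with 2 matches, and Klb). It was also found in 2 of the 3 open in both (Nr0b2 and Vdr). Over all windows of these classes the shares were 43.1% (knockout alone) and 30.8% (both), and 37.5% over every window. Paired hexamers were searched as an inverted repeat with 1 base between (the FXR arrangement), direct repeats with 3 (vitamin D receptor), 4 (CAR and PXR) or 5 bases between and an everted repeat with 6 bases between (PXR). They matched 0 of the 10 windows, and each at most 0.0731% of all windows. The LRH-1 motif (TCAAGGTCA, TCAAGGCCA, CCAAGGTCA or CCAAGGCCA) also matched 0 of the 10, against 2.22% of all windows, as did the HNF4 (CAAAGTCCA, 0.475%), HNF1 (0.00913%) and ETS (GAGGAAGT or CCGGAAGT, 6.93%) motifs. A FOXA motif (TGTTTAC or TGTTTGC, 8.48% of all windows) had 2 matches in the Nr1i2 window. An AP-1 motif (TGANTCA, 7.81%) had 1 match in the Nr1i3 window, and a C/EBP motif (TTGCNNAA, 10.8%) had 1 in the Nr5a2 window that overlapped no peak. The hexamer is part of the paired and LRH-1 motifs. Only exact matches to the stated letters were counted, so looser forms of a motif were not sought. These matches describe letters in the window, not bound sites.

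**Figure D2:**
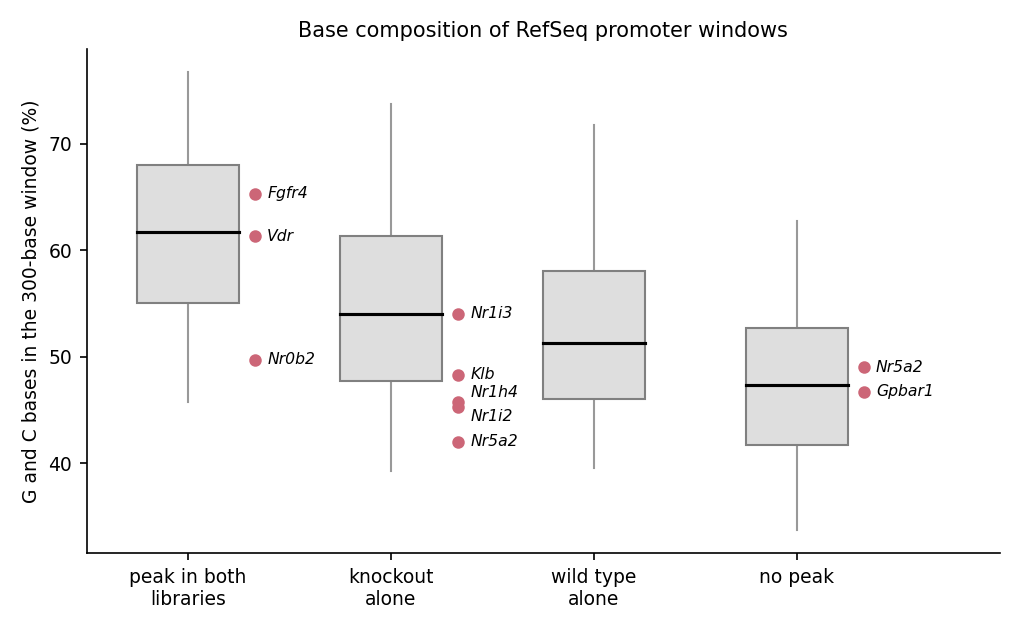
Share of G and C bases in RefSeq promoter windows, by whether the window overlaps a peak in both libraries, the knockout alone, the wild type alone or neither; boxes give quartiles and median, thin lines the 5th to 95th percentile over 13199, 2737, 569 and 16346 windows, and red points the 10 windows of the 9 genes. Fgfr4 and Vdr sit near the median of the class open in both libraries, and Nr0b2 sits below its box.

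Among the nuclear receptors, the FXR gene Nr1h4 (chr10:89454234-89533645, minus strand) had 6 wild-type peaks and 20 knockout peaks. Their lengths came to 5.07 kb and 17.2 kb. The gene has alternative promoters, and they differed between the libraries. The 5′ promoter was open in both, at chr10:89533258-89533882 (wild type) and chr10:89533138-89534046 (knockout). The internal promoter, whose window is printed above, lay under a peak of the knockout library alone (chr10:89506332-89507260), 26.9 kb inside the gene. It belonged to a run of 6 consecutive regions assigned to Nr1h4, over 30 kb (chr10:89489849-89519848), none of which overlapped a wild-type peak. Upstream of the gene 4 further knockout-alone regions had their centres from -13.4 to -32 kb of the 5′ end. No wild-type peak assigned to Nr1h4 lay there. The 1 region of the wild-type library alone lay at chr10:89484720-89485608. On the log2 scale with 1 kb added to both lengths, and relative to the median gene, the knockout library was higher by 1.19.

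That centred ratio is used for every gene below: accessible length of the knockout over that of the wild type, with 1 kb added to each, on the log2 scale, minus 0.39, the median over the 14692 genes with a mean length of at least 2 kb. All 9 genes passed that minimum. Genes whose ratio reached 1 were called higher and those that reached -1 lower. This sorts genes by size only, since 1 library per genotype allows no test. By this rule 3 of the 9 genes were higher in the knockout library (Klb, Nr1h4 and Nr5a2), where 10.3% of all measured genes were. None of the 9 was lower, where 4.08% of all were, and the other 6 lay between. The median of the 9 was 0.60. Nr1h4 fell short of the rule, at 0.91, when every peak over the gene and 10 kb on both sides was counted in place of those assigned to it.

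**Figure D3:**
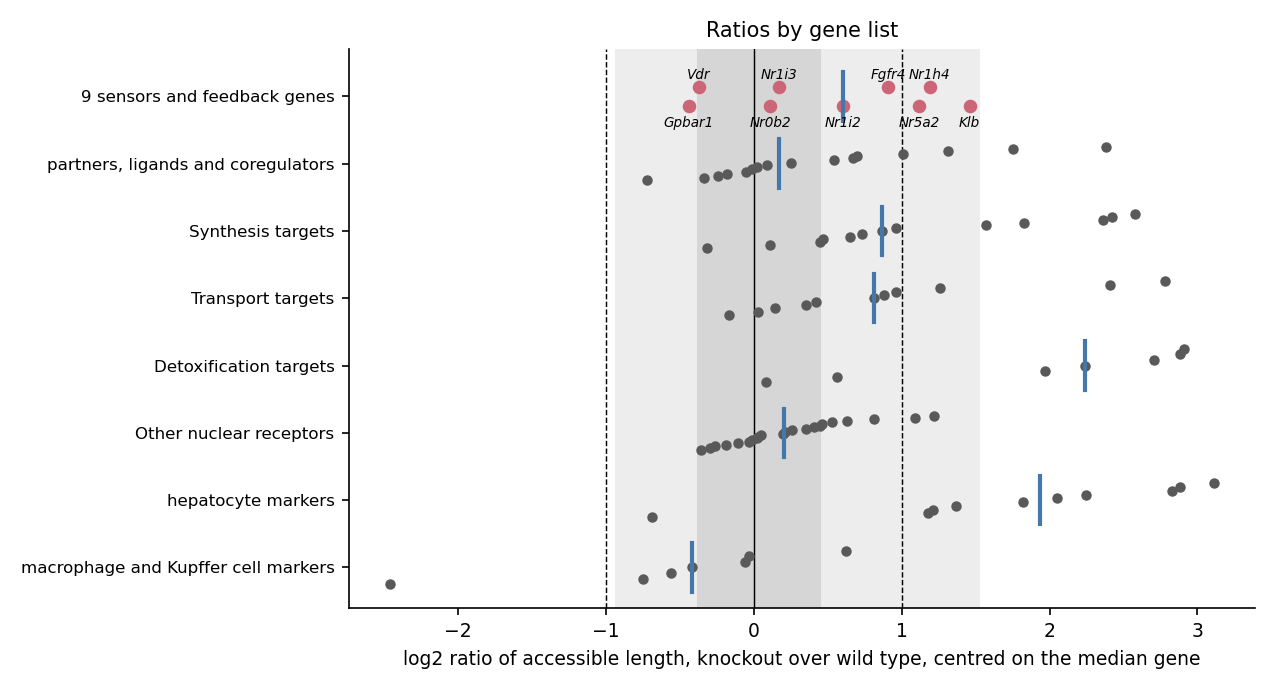
Centred log2 ratio of accessible length, knockout over wild type, for the measured genes of 8 lists (points; the 9 sensors and feedback genes in red with names) with list medians as blue bars; dark and pale grey bands hold the middle 50% and 90% of all 14692 measured genes and dashed lines mark 1 and -1. The 9 genes run from -0.44 (Gpbar1) to 1.46 (Klb). Beyond 1 lie 9 of the 10 hepatocyte markers, against 10.3% of all measured genes. Of the 10 markers, 5 had 0 wild-type peaks and, once measured, could only lie there.

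Nr5a2, the LRH-1 gene (chr1:136842562-136960448, minus strand), had the most regions of the 9, with 13 wild-type and 38 knockout peaks. Together these covered 10.7 kb and 32.5 kb, with a centred log2 ratio of 1.12. Of its 13 wild-type peaks 12 were shared, so that the knockout library held nearly the whole wild-type pattern and 26 regions besides. Both knockout promoter peaks, at the 5′ end (chr1:136960275-136961147) and 11.3 kb inside the gene (chr1:136948702-136949518), had no wild-type counterpart. Around and upstream of the 5′ end, 9 consecutive regions assigned to Nr5a2, over 77.6 kb (chr1:136957637-137035222), were open in the knockout library alone. Of the 12 shared regions 7 lay in the gene, 3 beyond its 3′ end and 2 far upstream, at -114 and -115 kb. Of 171 genes with 13 wild-type peaks, 3 had 38 or more knockout peaks, Nr5a2 included, and the median of the 171 was 15. For Nr1h4, 12 of 1035 genes with 6 wild-type peaks had 20 or more knockout peaks, and the median of the 1035 was 7.

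Nr0b2, the SHP gene (chr4:133553376-133556686, plus strand), had 3 wild-type and 5 knockout peaks. They summed to 2.77 kb and 4.35 kb, a centred log2 ratio of 0.11, close to the median gene. Its promoter was open in both libraries, at chr4:133552808-133553696 (wild type) and chr4:133552750-133553588 (knockout). A further promoter peak (chr4:133551718-133552480), at -896 bp from the start, had no wild-type counterpart, and a peak inside the gene (chr4:133555569-133556566) had no knockout counterpart. In these single libraries Nr0b2 thus had a smaller ratio than its inducer's gene Nr1h4 and its partner's gene Nr5a2. These genes differ in size: Nr0b2 spans 3.31 kb, Nr1h4 79.4 kb and Nr5a2 118 kb, and Nr0b2 had the fewest peaks. Without the added 1 kb and the centring, knockout over wild-type length was 1.57 (Nr0b2), 3.4 (Nr1h4) and 3.03 (Nr5a2). The part that gene size plays was not tested.

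The xenobiotic receptors Nr1i2 and Nr1i3 resembled Nr5a2 in having annotated promoter peaks on the knockout list only. Nr5a2 had in addition the shared region near a start, called distal, that is described above. Nr1i2, the PXR gene (chr16:38248349-38294849, minus strand), had 5 wild-type and 11 knockout peaks, or 4.27 kb and 9.52 kb (centred log2 ratio 0.60). Its start site lay under 1 knockout peak (chr16:38294405-38295271) with another at -715 bp, and neither place had a wild-type peak. The 4 shared Nr1i2 regions were centred 7.06 kb or more past the 5′ end, and 3 of its 5 wild-type peaks were assigned to the neighbour Gsk3b too. Counting only peaks assigned to Nr1i2 alone, 2 wild-type and 8 knockout peaks were left and the ratio was 1.20. Nr1i3, the CAR gene (chr1:171213934-171218845, plus strand), had 2 wild-type and 4 knockout peaks, or 1.67 kb and 2.95 kb (centred log2 ratio 0.17). All 3 knockout regions around its start, over 2.8 kb, were absent from the wild-type list, and the single shared region lay 7.07 kb past the 5′ end and was assigned to Tomm40l too.

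Vdr and Gpbar1 did not follow the others. Vdr (chr15:97854427-97908296, minus strand) had 8 peaks in each library, summing to 6.79 kb (wild type) and 6.92 kb (knockout). Equal totals hid different places: 3 regions were shared, 5 were specific to the wild-type list and 5 to the knockout list. Of the 5 wild-type regions 3 lay upstream, at -9.88, -16.8 and -19.7 kb, and 2 inside the gene, at 0.94 and 43 kb. The 5 knockout regions all lay within the gene, from 22.8 to 47.8 kb past its 5′ end. The promoter was open in both libraries (chr15:97907894-97908734 and chr15:97907858-97908759). Relative to the median gene the ratio was -0.37, and without that centring 0.02. The equality rests in part on peaks inside Vdr that were assigned to Hdac7 too. Counting only peaks assigned to Vdr alone, 7 wild-type and 5 knockout peaks were left and the ratio was -0.75. Gpbar1, the TGR5 gene (chr1:74278600-74279589, plus strand), had 3 peaks in each library, 2.67 kb and 2.56 kb, a centred ratio of -0.44 (-0.05 without centring). A pair of regions upstream, centred at -3.28 and -4.81 kb (wild type) and at -3.40 and -4.78 kb (knockout), was shared. Each library also had 1 region of its own further upstream, at -19.8 kb (wild type) and -16 kb (knockout), assigned to Arpc2 too. Of 562 genes with 8 wild-type peaks 399 had at least as many knockout peaks as Vdr, and of 3100 genes with 3 wild-type peaks 2426 had at least as many as Gpbar1.

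The hepatocyte receptor for FGF15 consists of FGFR4 and beta-Klotho, and both genes had most of their regions in the knockout library alone. Fgfr4 (chr13:55152818-55168759, plus strand) had 2 wild-type and 7 knockout peaks, or 1.81 kb and 5.94 kb, with a centred log2 ratio of 0.91, just inside the size rule. Both of its wild-type regions, the promoter (chr13:55152505-55153406) and a region 26 kb downstream of the 5′ end, were shared. Klb (chr5:65348411-65386957, plus strand) had 1 wild-type and 7 knockout peaks, or 0.98 kb and 6.15 kb. Its centred log2 ratio of 1.46 was the highest of the 9. The 1 wild-type peak, 8.65 kb inside the gene (chr5:65356574-65357553), was shared. All 6 regions of the knockout library alone touched the gene, among them the promoter (chr5:65347983-65348755). Of 6304 genes with 1 wild-type peak, 237 had 7 or more knockout peaks. The hormone gene Fgf15 itself, made in the intestine, had 1 peak in each library, annotated as promoter on the wild-type list and distal on the knockout list.

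**Figure D4:**
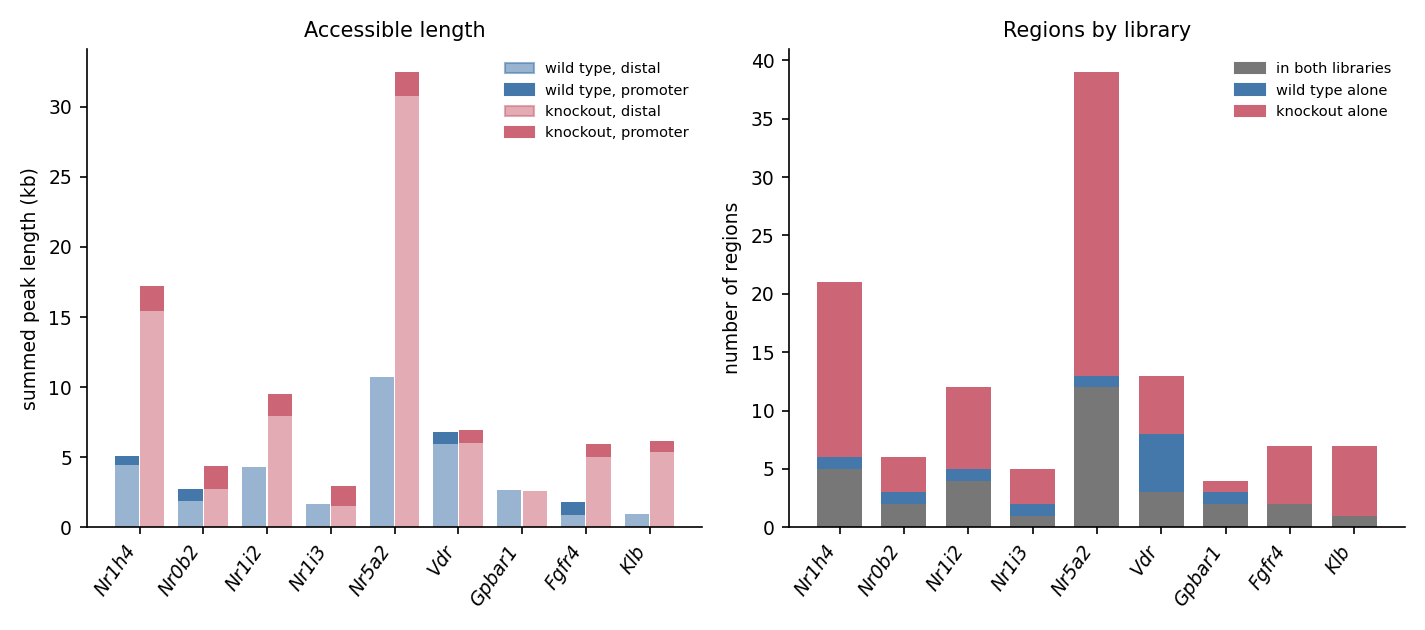
Left, summed peak length in kb per gene and library, with promoter length stacked in the darker shade on distal length; right, number of regions per gene found in both libraries, in the wild type alone or in the knockout alone. Knockout-alone regions outnumber shared ones (grey) in 8 of the 9 genes, Gpbar1 being the exception. Over all genes 43.7% of knockout distal peaks and 78.9% of knockout promoter peaks overlapped a wild-type peak. Vdr has as many wild-type-alone as knockout-alone regions, 5 each.

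Sharing of peaks was then set against all peaks of the same kind. All 4 wild-type promoter peaks of the 9 genes overlapped a knockout peak by at least 1 bp, where 93.5% of all wild-type promoter peaks did. Of the 13 knockout promoter peaks 4 overlapped a wild-type peak (30.8%), where 78.9% of all did. For distal peaks the shares were 28 of 39 in the wild-type library (71.8%, all genes 67.1%) and 28 of 90 in the knockout library (31.1%, all genes 43.7%). No test of these differences is possible, and the knockout list is the longer one. Neighbouring peaks of 1 gene share their locus and are not replicates. Of the peaks, 8 (wild type) and 13 (knockout) were also assigned to a neighbouring gene, at Nr1h4, Nr1i2, Nr1i3, Vdr, Gpbar1 and Klb.

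The genes that these receptors act on or with had more peaks in the knockout library as well, most of all the detoxification targets. Of 15 detoxification genes, 12 were listed at 0 peaks in the wild-type library. Cyp3a11 and Cyp2b10, the classical PXR and CAR targets, are among these 12, with 10 knockout peaks each. The count was not made over all genes, so it does not set this list apart from genes at large. Of the 12 detoxification genes with a promoter peak in either library, 9 had it on the knockout list only (all genes 15.4%). Cyp3a11 is also on the hepatocyte marker list. These 15 genes had 12 wild-type and 85 knockout peaks in all. Cyp3a25 had 0 and 9. Of the 7 measured, 5 were higher by the size rule (all measured genes 10.3%). All 5 had 0 wild-type peaks, so they reached the 2 kb minimum through the knockout library only. Such a gene passes the size rule by construction, so this count is no result about these genes. Several of the 15 belong to families of near-identical copies, where mapping of reads is uncertain. Synthesis genes had 48 and 141 peaks, with 5 of 13 measured genes higher (all measured genes 10.3%). For 7 of the 15, all of which had a promoter peak in either library, it was on the knockout list only (all genes 15.4%). They include Cyp7a1, the target of LRH-1 and SHP, with 2 and 11 peaks. Baat, Slc27a5 and Cyp2c70 are among them too, listed at 0 in the wild-type library with 9, 7 and 7 knockout peaks. These 3 count among the higher synthesis genes by construction. Transport genes had 57 and 132 peaks, with 3 of 11 higher (all measured genes 10.3%). Of the 13 with a promoter peak in either library, 8 had it on the knockout list only (all genes 15.4%). FXR's target Abcb11, the bile salt export pump, was listed at 0 wild-type and 7 knockout peaks, and Slco1b2, an uptake transporter gene, at 0 and 9. Both count among the 3 higher transport genes, again by construction.

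Partners, ligands and coregulators had 219 and 425 peaks, of which 111 and 215 were those of Fgfr2, so these totals describe largely that gene. Of 16 measured genes 4 were higher (all measured genes 10.3%). The coactivator gene Ppargc1a had 2 and 20 peaks, the lipid sensor Ppara 4 and 22, and Hnf4a, a hepatocyte regulator, 1 and 7. The promoters of these 3 genes were open in both libraries. Nuclear receptors outside bile acid sensing had 183 and 340 peaks. Of 22 measured 2 were higher, about the share of all measured genes (10.3%). The largest ratios were those of Esr1, the estrogen receptor, with 8 and 28 peaks, Rora with 22 and 66, and the thyroid hormone receptor gene Thrb, under the size rule with 14 and 34. Of those 25 receptors, 23 had a promoter peak in both libraries and 2 on the knockout list only. Among the 8 bile acid genes with a promoter peak in either library, these numbers were 4 and 4. Over all genes with such a peak, 15.4% had it on the knockout list only and 3.17% on the wild-type list only. No gene of these 5 lists was lower by the size rule. The list medians were 2.24 (detoxification), 0.87 (synthesis), 0.81 (transport), 0.20 (other nuclear receptors) and 0.17 (partners), beside 0.60 for the 9 genes and 1.93 for hepatocyte markers. Where a gene had no wild-type peak, its ratio in these medians rests on the added 1 kb and on the 2 kb minimum. The detoxification median is the ratio of such a gene, Gsta2.

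Likeness to other genes of the pathway was measured as the distance over 4 values, the log2 promoter and distal lengths in each library, among 92 genes. Fgfr4 was nearest to its relative Fgfr3, which also had 2 and 7 peaks (distance 0.0945). Nr0b2 was nearest to Mafg, which encodes a small Maf repressor induced by FXR, with 4 and 5 peaks (0.158). Klb was nearest to the bile acid transporter gene Slc10a2, with 1 and 6 peaks (0.361), and Nr5a2 to the synthesis gene Akr1d1, with 10 and 27 (0.768). Nr1i2 was nearest to Abcc2, with 6 and 11 peaks (0.526), Vdr to Por, with 6 and 9 (0.388), and Nr1h4 to Cyp7b1, with 7 and 16 (0.773). The distances of Gpbar1 to Fabp6 (0.936) and Nr1i3 to Nr2f6 (0.985) were the widest.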

How the data were processed

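Nuclei RNA and ATAC libraries of 1 wild-type and 1 Mertk knockout preparation were deposited. Per the file headers, peaks were called with cellranger-arc 2.0.2 on its mm10 reference, in a separate run per genotype. Settings of the peak caller: not given in the sources used here. Deposited peak lists and annotation hold positions in bp and a signed distance, with no height or score. Tables of raw counts for every barcode, as deposited by the authors, were used for depth alone. Doublets were not removed, which needs counts per gene.

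Only assembled nuclear chromosomes were used (43 wild-type and 44 knockout peaks lie elsewhere). Lines of type promoter or distal whose gene is one of the 9 were taken. Sharing required 1 bp in common with any peak of the other library. Gene spans and promoter sequences are RefSeq's on GRCm38.p6, matched by symbol for 9 of 9 genes; exons were not used here. All ratios were computed over the whole table. The design foresaw motifs in peaks, but no genome was used here, so motifs were searched in promoter windows alone. Named genes are the 9, the pathway gene nearest to each, and, of each other pathway list, the 3 with the largest ratios and some of those with a promoter peak in 1 library alone. The hepatocyte markers are all named, and the stellate cell markers where they had 0 wild-type peaks, a choice made after their values were seen. The members, lists and thresholds were chosen with earlier results of these data known.

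The software was Python 3.11.15 with pandas 2.3.3 and numpy 2.4.6, and figures were drawn with matplotlib 3.10.9. Overlaps were checked against bedtools 2.31.1, and the calculations tested on simulated data.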

Additional observations from a re-analysis of the deposited data

How the results depend on the processing

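No paired analysis was possible because a genotype had a single library per assay, and for the same reason no replicate could be left out. The ratios were recomputed under 11 other settings. The number of genes past the size rule was 2 to 4 in the 10 that gave a value, and 0 of the 9 genes was lower in any of them. Restricted to promoter peaks none of the 9 genes reached the length minimum, which 216 genes of the whole table did. Nr5a2 was past the rule in all 10. Klb was not measured under a minimum of 4 kb and was past the rule in the other 9. Nr1h4 was at 0.91 when every peak over the gene body extended by 10 kb was counted, and past the rule in the other 9. Fgfr4 passed with a pseudocount of 0.5 kb (1.04), without centring (1.30), with distal peaks only (1.23) and, by peak number, reached the limit of 1. Nr1i2 passed when peaks assigned to other genes were left out (1.20), the only one of 82 recomputed ratios whose fold moved by over 1.5 times. Without centring 19.6% of all measured genes were higher and 1.34% lower, against 10.3% and 4.08%. Motifs in the central part of peaks were not run. The median over the measured members ranged from 0.56 to 1.14, the latter over the 7 still measured when peaks assigned to other genes were left out. The share of peaks with an overlap ranged from 74.4% to 77.1% (wild type) and from 30% to 34% (knockout), and peak numbers from 35 to 43 and from 90 to 103. Peak lists without heights set no depth per region, so a region missing from the shallower wild-type list was not called there, which does not show that it was closed.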

Other observations

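Some peaks of the 9 genes came in close pairs, with at most 300 bp between them, a feature chosen after the values were seen. Such pairs numbered 2 (wild type) and 8 (knockout). The far upstream pair of Nr5a2 was the same in both: 638 and 613 bp wide with 115 bp between in the wild-type library (chr1:137073921-137074558 and chr1:137074674-137075286), and 590 and 586 bp with 111 bp between in the knockout library. At Nr1h4 a single wild-type peak of 825 bp (chr10:89521631-89522455) corresponded to the first of a knockout pair (723 and 637 bp, 117 bp between), and the second of that pair counted as knockout alone. Over all peaks, 9.71% of wild-type and 9.21% of knockout peaks stood in such pairs, with median widths of 751 and 743 bp against 878 and 884 bp for the others.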
